A study of Drosophila melanogaster with 4 samples.

Results

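The telomere-side ends of 4 chromosome arms of Drosophila melanogaster were examined for enrichment of HP2, a chromosomal protein that binds heterochromatin protein HP1. An end is the outermost 200 kb of the assembled arm on FlyBase r5: positions 1 to 200000 of 2L, 3L and X, and positions 27705054 to 27905053 of 3R. The rule that sets the ends uses position and no measured value, although it was written with earlier results of these data known. They hold 800 of the 168724 regions of 1 kb into which the assembly divides. The ends contained the midpoints of 29 of the 4728 enriched regions (clusters) called in ChIP replicate 1, 22 of the 4163 called in replicate 2, and 34 of the 7037 in a further list that the authors made from the replicate set (the combined list).

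All samples came from head nuclei of wild-type Oregon-R flies, mixed adults grown in population cages, and no treatment or allele sets them apart. Crosslinked chromatin was precipitated with the HP2 antibody Ab2-90 in 2 ChIP samples, and 2 input samples served as their references, 1 for each replicate. Head nuclei come from neurons, glia and other cells, so the calls are averages over cell types. Separate fly collections for the replicates are not named in the labels, and the spread between them may therefore be technical.

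HP2, the product of Su(var)2-HP2, was identified as a partner of HP1. Mutations in its gene suppress position-effect variegation, the patchy silencing of genes placed next to heterochromatin. Fly telomeres lack telomerase repeats. They are built from arrays of the retrotransposons HeT-A, TART and TAHRE, followed inwards by telomere-associated satellite repeats, and HP1 belongs to the protein cap that protects the chromosome end. Genes inserted near these ends can be silenced, which is known as telomeric position effect. The end of an assembled arm is where its sequence stops, and this need not be the physical end of the chromosome.

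HP2 was laid out differently at each of the 4 ends. The main features recurred in both replicates, but single clusters did so less on 2L and 3L. Bases common to both replicates were 57.2% of their union on 2L and 59.5% on 3L. X had a crowd of clusters in its first 24 kb and then a long stretch without any. On 3R a few clusters lay within 95 kb of the end and none farther in. On 2L clusters were scattered over most of the 200 kb, 11 in replicate 1 and 6 in replicate 2. Of the former, 5 had no base in the latter. In the interior of 2L, the arm without its end and the 2 Mb at the centromere side, 132 of 542 had none. On 3L a single long cluster lay 51 kb from the end, followed by a free stretch and a group of shorter clusters.

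**Figure D1:**
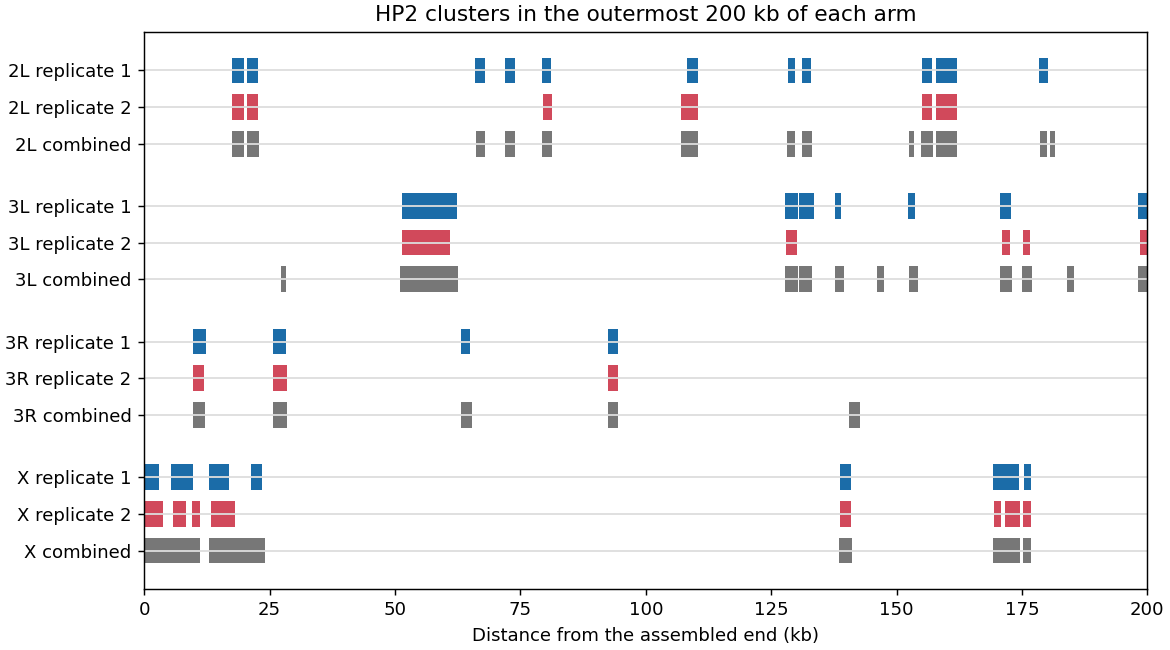
Clusters in the outermost 200 kb of 2L, 3L, 3R and X by distance from the assembled end (kb), 1 row for each arm and list; each bar spans a cluster. X starts with clusters at its first bases, while the outermost cluster of either replicate on 3L begins at 51308 bp.

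At the end of X, the outermost cluster of replicate 1 ran from 75 to 3013 with a score of 1.67, and that of replicate 2 from 154 to 3813 with a score of 1.09. The score is the authors' own measure of a cluster and its scale is not given. It is used here to rank clusters within a list, in which the median was 0.719 in replicate 1 and 0.717 in replicate 2. Replicate 1 held 3 more clusters in this block, from 5258 to 9649 (score 0.795), from 12976 to 16839 (1.34) and from 21241 to 23470 (0.787). Replicate 2 also held 3 more, from 5658 to 8333 (0.761), from 9440 to 11071 (1.12) and from 13281 to 18146 (1.03). The combined list joined the block into 2 clusters of 11015 and 11203 bp, from 72 to 11086 and from 12938 to 24140. Calls within this block differed between replicates: the bases common to both were 54.9% of their union in the outermost 100 kb of X, which holds no other cluster. The cluster from 21241 to 23470 in replicate 1 had no base in replicate 2, and that from 9440 to 11071 in replicate 2 had 12.9% of its bases in replicate 1.

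Beyond the block, X had no cluster over 115163 bp in either replicate, from 23471 to 138633, and the combined list had none there from 24141 to 138617. The next cluster inwards ran from 138729 to 141009 in replicate 1 (score 1.07) and from 138634 to 140936 in replicate 2 (0.991). A last group lay between 169265 and 176834. Replicate 1 called it as 2 clusters with scores of 0.813 and 0.404, and replicate 2 as 3 clusters with scores from 0.527 to 0.750. No cluster of X followed up to 200 kb.

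On 3R distances were counted from position 27905053. The outermost cluster ran from 27892752 to 27895361 in replicate 1 (score 1.58) and from 27893108 to 27895340 in replicate 2 (1.50), so that it began 9693 and 9714 bp from the end. The next ran from 27876727 to 27879341 (1.12) and from 27876679 to 27879324 (1.32). Farther in, a cluster from 27840120 to 27841961 with a score of 0.542 was called in replicate 1 and had no base in replicate 2. The innermost, from 27810540 to 27812494, scored 0.480 in replicate 1 and 0.501 in replicate 2. These clusters were 1842 to 2646 bp long, near the list medians of 2099.5 bp in replicate 1 and 2085 bp in replicate 2. The 105486 bp farther in held no cluster in either replicate. The combined list placed 1 cluster there, from 27762364 to 27764612, with a score of 0.365.

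On 2L the outermost clusters were a neighbouring pair. The first ran from 17575 to 19831 in replicate 1 (score 1.06) and from 17592 to 19821 in replicate 2 (1.09). The second ran from 20435 to 22785 (0.983) and from 20447 to 22721 (0.733). A free stretch of 43264 bp followed in replicate 1 and one of 56808 bp in replicate 2. A second pair lay farther in, from 154995 to 157147 and from 157955 to 161999 in replicate 1, with scores of 0.744 and 0.693. In replicate 2 this pair scored 0.962 and 0.813. Of the 11 clusters of replicate 1 on this end, 5 had no base in replicate 2, against 132 of 542 in the interior of 2L. The scores of these 5 ranged from 0.297 to 0.493, the latter for the cluster from 66050 to 67941. All 6 clusters of replicate 2 were shared, as were 414 of 443 in the interior of 2L.

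On 3L the first 50 kb held no cluster in either replicate. The long cluster ran from 51308 to 62419 (11112 bp, score 1.39) in replicate 1 and from 51464 to 61004 (9541 bp, 1.27) in replicate 2. It was the longest cluster of any of the 4 ends in both replicates, and ranked 121 by length among the 4728 clusters of replicate 1 and 172 among the 4163 of replicate 2. No cluster lay between 62420 and 127755 in either. The scores of the remaining clusters ranged from 0.408 to 0.826 in replicate 1, which had 6 of them, and from 0.458 to 0.594 in replicate 2, which had 4. The highest of these in both lists, from 198204 to 200450 in replicate 1, crosses the inner border of the end. In replicate 1 it was the only one of them above the median score of the list, and in replicate 2 none was.

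Over the full 200 kb, the end of 3R had the lowest share of bases in clusters. On 2L it was 11.8% in replicate 1 and 7.97% in replicate 2, averaging 9.89% ± 2.71 (SD, n = 2). The end of 3L was covered to 11.7% and 8.02%, averaging 9.84% ± 2.57, and that of X to 11.1% and 10.6%, averaging 10.9% ± 0.390. Coverage of the 3R end was 4.51% and 3.43%, averaging 3.97% ± 0.767. Over 200 kb it was below the other 3 ends in both replicates and in the combined list, and the differences exceeded their SD between replicates. The end of 2L was 5.92 ± 1.94 percentage points above it and that of 3L 5.87 ± 1.80 points, while 3R minus X was -6.89 ± 0.377 points (SD of the difference, n = 2). The order of the other 3 ends was not stable. 2L minus X was 0.664 points in replicate 1 and -2.62 points in replicate 2. The difference between 2L and 3L was 0.149 points in replicate 1 and -0.052 in replicate 2. The place of 3R depended on the size of the end. In the outermost 50 kb it lay above 3L and 2L in both replicates and the combined list: 3L minus 3R was -10.1 ± 0.489 points and 2L minus 3R -0.991 ± 0.344 points. In the outermost 100 kb, 3R was covered to 9.02% in replicate 1 and 6.85% in replicate 2, and 2L to 10.4% and 6.22%, so their order differed between replicates. No test of these differences was run, and an SD over 2 lists does not measure the spread between regions.

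By bins of 1 kb, the 4 ends together had 79 of 800 bins with at least 50% of their bases in clusters in replicate 1 and 60 in replicate 2. These shares, 9.88% and 7.50%, compare with 7.80% and 6.42% of all bins on the 4 arms. In the combined list 100 bins (12.5%) passed, against 10.6% of all bins. The ends as a group thus lay 1.08 to 2.08 percentage points above the arms. By arm, replicate 1 had 25 such bins on 2L, 23 on 3L, 23 on X and 8 on 3R. Replicate 2 had 15, 18, 22 and 5. In both replicates the same 53 bins passed, of 86 that passed in either. This overlap was not counted over all bins of the arms, so it is not read as a trait of the ends. By bases, those common to both replicates were 62.1% of their union over the 4 ends and 66.0% over the 4 interiors. Neighbouring bins often lie in the same cluster, so they are not independent and no interval is given for their share.

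Each end was next set against the interior of its own arm, which leaves out the end and the 2 Mb at the centromere side. The end of 2L was covered more than its interior in both replicates, 9.89% ± 2.71 against 5.56% ± 0.885 (SD, n = 2), a difference of 4.33 ± 1.82 percentage points. On 3L the difference was 4.28 ± 1.46 points, and on X 3.96 ± 1.20 points. On 3R the end was covered less than the interior, 3.97% ± 0.767 against 5.09% ± 0.969, a difference of -1.12 ± 0.202 points. Each difference exceeded the SD between replicates, which describes the spread between 2 lists and not that between regions. The sign of each difference was the same in both replicates and in the combined list, which is not independent of them. The sign on 3R depended on the size of the end: with the outermost 100 kb it was 2.87 points, with 400 kb 0.471 points, and with high-scoring clusters (those that reach the median of their list) 0.126 points. On X the difference shrank to 0.581 points with 400 kb. The outermost 400 kb of X was covered to 7.94% in replicate 1 and 7.09% in replicate 2. Its interior inwards of 200 kb was at 8.03% and 5.78%. The outermost 400 kb of 3R was at 6.73% and 4.36%, against 5.78% and 4.41%. These interiors take in the stretch from 200 to 400 kb, which the differences of 0.581 and 0.471 points leave out. Against them, X at 400 kb was not above its interior in replicate 1, nor 3R in replicate 2. On 2L and 3L the difference fell to 1.74 and 1.49 points when the interior took in the centromere-side 2 Mb, where coverage is high.

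**Figure D2:**
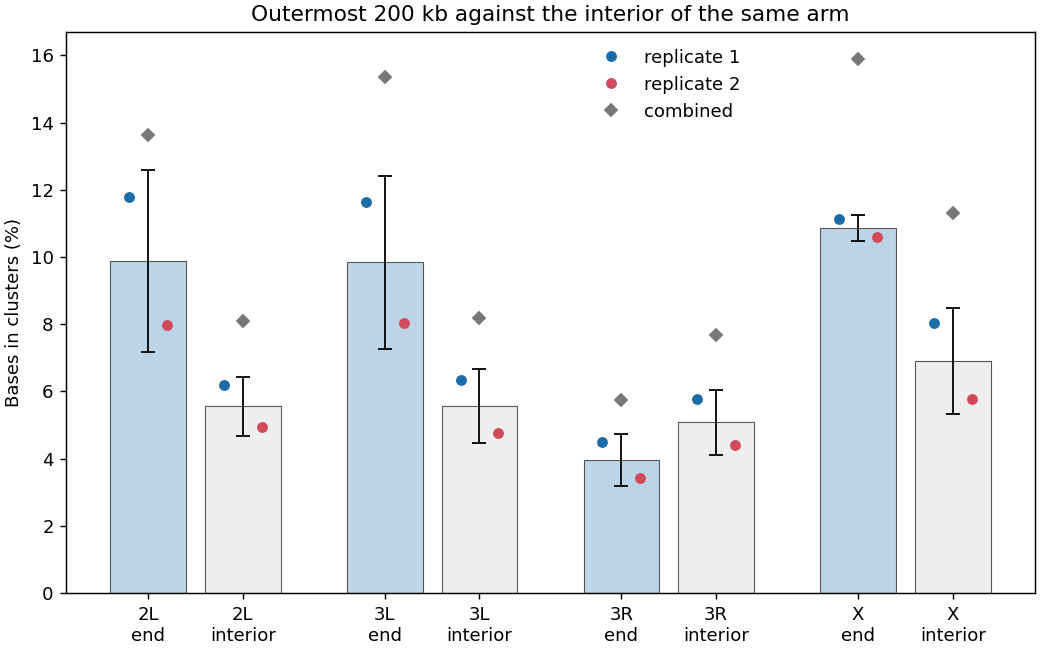
Percent of bases in clusters in the outermost 200 kb and in the interior of each arm; bars are means over both replicates, error bars the SD (n = 2), circles the replicates and diamonds the combined list. The ends of 2L, 3L and X exceed their interiors, while the end of 3R (3.97%) lies below its interior (5.09%).

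Windows of 200 kb along each arm show how common such values are. The end of 2L ranked 13 among 105 windows of its arm in replicate 1 and 22 in replicate 2, where rank 1 is the most covered. That of 3L ranked 15 and 16 among 112 windows, that of X 27 and 11 among 102, and that of 3R 76 and 74 among 129. No end was the most covered window of its arm. On 2L the most covered other window reached 54.4% in replicate 1 and on X 27.8%. The end of X stood higher when only its outermost 50 kb was taken: covered to 26.9% and 25.7%, it ranked 17 and 8 among 408 windows of 50 kb, and 5 in the combined list. The outermost 50 kb of 3L, at 0% in both replicates, shared that value with 141 other windows of the arm in replicate 1 and 175 in replicate 2.

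**Figure D3:**
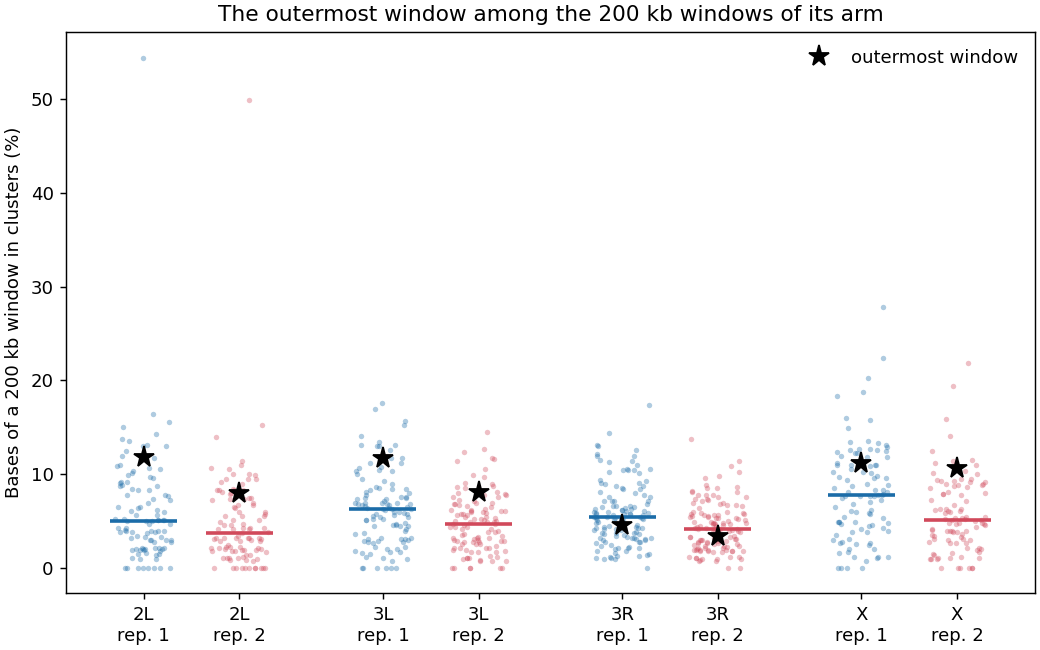
Percent of bases in clusters in windows of 200 kb along each arm without its centromere-side 2 Mb. Small points are the windows other than the outermost, lines their median, and stars the outermost window. The stars of 2L, 3L and X lie above the median of their arm in both replicates and those of 3R below it.

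Coverage varied with distance from the assembled end, and in a different way on each arm. On X the outermost 20 kb was covered to 56.0% in replicate 1, 64.2% in replicate 2 and 90.4% in the combined list. The 4 steps of 20 kb from 40 to 120 kb were at 0% in all 3 lists, and coverage rose again to 32.9% and 30.2% between 160 and 180 kb. On 3R the outermost 2 steps were covered to between 11.2% and 13.2% in both replicates, and the 5 steps from 100 kb inwards were at 0% in both. The combined list had 11.2% in 1 of these 5, between 140 and 160 kb. On 3L the step from 40 to 60 kb reached 43.5% and 42.7%, with 0% in both replicates in the 2 steps outside it. On 2L no step exceeded 22.9% in either replicate, and only the step from 40 to 60 kb was empty in both.

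**Figure D4:**
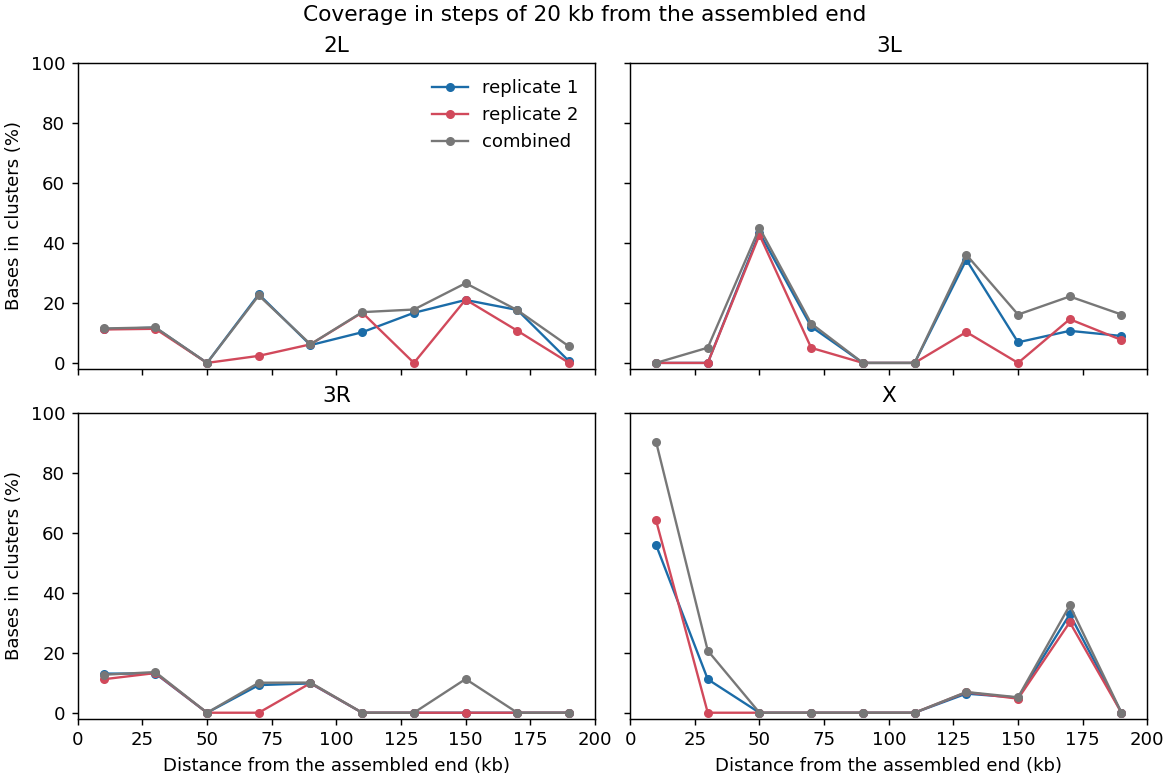
Percent of bases in clusters in steps of 20 kb from the assembled end of 2L, 3L, 3R and X, for replicate 1, replicate 2 and the combined list. Coverage peaks in the first step on X (56.0% and 64.2% in the replicates) and in the step from 40 to 60 kb on 3L.

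Set as a contrast of the outer against the inner 100 kb, coverage was higher in the outer part on 3R, 7.94% ± 1.53 against 0% in both replicates. It was also higher in the outer part on X, 13.1% ± 0.418 against 8.60% ± 0.362 (SD, n = 2). On 2L it was lower in the outer part, 8.29% ± 2.94 against 11.5% ± 2.48, in both replicates. This sign turned to 0.295 points in favour of the outer part with high-scoring clusters. On 3L the difference of 0.977 points had no stable sign: it was -1.08 points in replicate 1, the value without replicate 2, and 3.04 points in replicate 2.

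Clusters close to the assembled end carried high scores. All 8 clusters of replicate 1 in the outermost 50 kb, 2 on 2L, 2 on 3R and 4 on X, reached at least the median score of the list, from 0.787 to 1.67. So did all 8 clusters of replicate 2 there, with the same numbers by arm, from 0.733 to 1.50, and all 7 of the combined list. From 50 to 200 kb, 5 of 21 clusters of replicate 1 and 5 of 14 of replicate 2 did so, and 6 of 27 of the combined list. In the interiors of the 4 arms the share was 44.1% in replicate 1, 42.2% in replicate 2 and 41.0% in the combined list. Over whole ends, 13 of 29 clusters of replicate 1 and 13 of 22 of replicate 2 reached the median of their list, so the ends as a whole were nearer to the interiors than their outermost 50 kb was. This contrast was picked out after the scores were seen, and 8 clusters a list are few.

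The outermost cluster was also the highest-scoring one of its end on all 4 arms in replicate 1, and on 2L, 3L and 3R in replicate 2 and in the combined list. On 3L the outermost combined cluster was another one than in the replicates, from 27264 to 28278 (score 1.96), and neither replicate called any base of it. At 1015 bp it was shorter than any replicate cluster of the ends or interiors. On X the outermost cluster ranked second in replicate 2 and in the combined list. In replicate 2 it scored 1.09, against 1.12 for the cluster from 9440 to 11071. In replicate 1 the outermost cluster scored 1.06 against a median of 0.478 for the others on 2L, 1.39 against 0.564 on 3L, 1.58 against 0.542 on 3R and 1.67 against 0.804 on X. As background, the cluster nearest the telomere side was the highest-scoring one in 42 of 359 interior windows of 200 kb with 3 or more clusters in replicate 1 (11.7%), in 59 of 319 in replicate 2 (18.5%) and in 44 of 399 in the combined list (11.03%). The pattern was noticed in these data and was not tested.

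**Figure D5:**
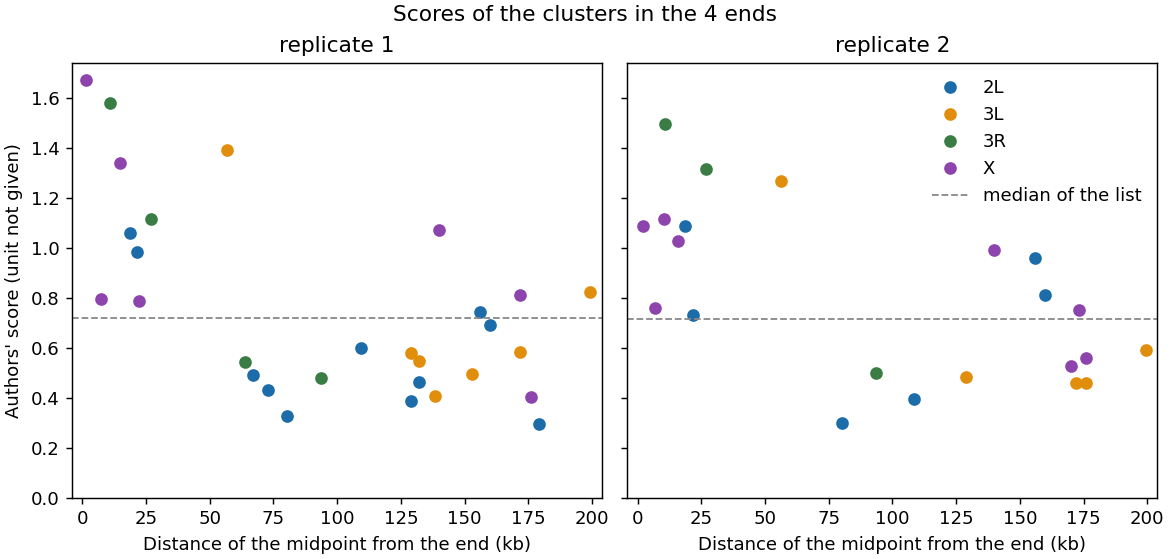
The authors' score of each cluster against the distance of its midpoint from the assembled end (kb), coloured by arm, for both replicates; the dashed line is the median score of the whole list. All 8 clusters within 50 kb of an end lie above the line in each replicate.

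Clusters of the ends were near interior ones in length. In replicate 1 the median length was 2230 bp against 2066 bp in the interiors, and in replicate 2 it was 2231.5 bp against 2045 bp. Their number was 36.3 per Mb in replicate 1 and 27.5 in replicate 2, against 29.3 and 22.8 in the interiors. The median score of all clusters of the ends was 0.599 in replicate 1 and 0.756 in replicate 2, on either side of the interior medians of 0.658 and 0.646. By arm, clusters were densest on 2L in replicate 1, with 55.0 per Mb, and on X in replicate 2, with 40.0. They were sparsest on 3R in both, with 20.0 and 15.0 per Mb.

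Most calls at the ends recurred. A cluster counted as shared when the other replicate covered at least 50% of it. By this measure replicate 2 had 20 shared clusters of 22 (90.9%, 95% Wilson interval 72.2% to 97.5%) and replicate 1 had 19 of 29 (65.5%, 47.3% to 80.1%). The interiors gave 93.1% (91.9% to 94.1%) and 71.5% (69.7% to 73.2%). The intervals cover counting error only and take clusters as independent, which neighbours on 1 genome need not be. Those of the ends are wide, and no conclusion on a difference from the interiors is drawn from them. Clusters of replicate 1 without a base in replicate 2, 10 of 29, had a median score of 0.478, against 0.813 for the shared ones. The interiors gave the same contrast: 728 of 2608 had no such base, with a median of 0.489 against 0.804 for the shared ones. The 1 cluster of replicate 2 without a base in replicate 1 lay on 3L from 175236 to 176596 and scored 0.461. In the interiors 135 of 2033 clusters of replicate 2 had no base in replicate 1.

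The bases common to both replicates were 57.2% of their union on the end of 2L, 59.5% on 3L, 64.9% on X and 74.4% on 3R. The interiors of these arms gave 69.9%, 67.9%, 60.6% and 66.9%. Over the 4 ends, 67.7% of the bases of replicate 1 and 88.2% of those of replicate 2 were called in both. For the 19 clusters that matched one to one, with at least 50% overlap of both, the median offset was 259 bp at the start and 73 bp at the end of a cluster. The largest difference in score among them, 0.584, belonged to the outermost cluster of X.

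The combined list contained 98.9% of the bases called in either replicate at the ends and added 17018 bp that neither called, or 16.8% of its own bases there. Of its 34 clusters, 6 touched no cluster of either replicate (17.6%, against 26.2% in the interiors): 3 on 3L, 2 on 2L, 1 on 3R and 0 on X. Of these, 5 scored between 0.331 and 0.396, among them the longest of 3L, from 183904 to 185362 (1459 bp, score 0.338), and of 2L, from 152500 to 153514 (1015 bp, 0.396). The other one, on 3L from 27264 to 28278 (1015 bp), scored 1.96 and was the highest-scoring combined cluster of the 4 ends, although neither replicate called any base of it. By score it ranked 14 among the 1116 combined clusters of the 4 arms that touched neither replicate. The shortest interior cluster was 1301 bp in either replicate list and 1001 bp in the combined list. Also shorter than 1301 bp were the combined clusters on 2L from 152500 to 153514 and from 180612 to 181624 (1013 bp). The same was true of that on 3L from 146152 to 147434 (1283 bp). Whether the replicate lists admit clusters this short is not known, so the absence of these clusters from them says little. The shares of 17.6% and 26.2% were counted without regard to length.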

How the data were processed

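HP2 ChIP-seq of adult fly head nuclei was analysed from 3 deposited lists of enriched regions, 1 for each of 2 ChIP replicates and 1 combined. The submitters' processing notes name Bowtie 0.12.7 as a tool. Build (FlyBase r5), arm lengths and the description as regions of significant enrichment are per the file headers and columns. The deposited score of each region is the authors' and has no stated unit. Not given in the sources used here are the caller, its threshold, the making of the combined list and the treatment of reads that map to several places, which bears on repeats near telomeres. Without counts the sequencing depth is unknown, and inputs enter only through the calls.

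Clusters were placed by their midpoint, and bases in overlapping clusters were counted once. Bins and distances were counted from the telomere side. Values are means with the SD (n = 2). No test was run between ends or parts, because an exact two-sided permutation over 2 lists cannot go below p = 0.5. The alternatives were other sizes of the end, score filters, the combined list and other overlaps. Coverage and bins were checked on simulated data, with 200 of 200 runs right. Regions were named by a rule: the outermost, the 3 longest and the 3 highest-scoring clusters of an end, the longest free stretches, and the calls of only 1 list. Ends with 8 or fewer clusters may be named in full. The regions and rules were chosen with earlier results of these data known. The ends of the other arms, genes and sequences were not analysed here. Python 3.11.15, numpy 2.4.6, scipy 1.17.1 and matplotlib 3.10.9 were used.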

Additional observations from a re-analysis of the deposited data

How the results depend on the processing

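Results are given here as means over both replicates, and where a value moved the cause was not tested. With the combined list, coverage of the end became 13.6% on 2L, 15.4% on 3L, 5.75% on 3R and 15.9% on X. The difference from the interior became 7.19 points on 3L and -1.92 on 3R. The outer minus inner difference became -6.47 points on 2L, 12.6 on X and -5.46 on 3L, where its sign reversed. Cluster numbers became 13 on 2L and 11 on 3L, and the bins passing on 3R 11.

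With high-scoring clusters (at least the list's median), coverage became 4.41% on 2L, 5.61% on 3L, 2.53% on 3R and 9.75% on X. The difference from the interior became 1.63 points on 2L, 5.72 on X and 0.126 on 3R, a reversed sign. The outer minus inner difference became 0.295 on 2L, also reversed, 9.43 on 3L, 5.05 on 3R and 6.75 on X. Cluster numbers fell to 3.5 on 2L, 1.5 on 3L and 2 on 3R, and shared bases became 91.6% on 3R and 58.4% on X.

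With the outermost 100 kb, coverage was 7.94% on 3R and 13.1% on X, the difference from the interior 2.87 points on 3R (reversed) and 6.22 on X, and shared bases 85.9% on 3L and 54.9% on X. With 400 kb, coverage was 5.55% on 3R and 7.51% on X, the difference 6.60 points on 3L, 0.471 on 3R (reversed) and 0.581 on X, and shared bases 55.0% on X. The differences on 3R and X at 400 kb did not have the same sign in both replicates. With the centromere-side 2 Mb kept in the interior, the difference was 1.74 points on 2L, 1.49 on 3L and -1.42 on 3R. The outer 50 kb minus the other 150 kb gave -1.03 points on 2L, -13.1 on 3L (reversed) and 20.5 on X. Merging clusters within 1 kb gave 70.4% shared bases on X. Counting bins with any base in a cluster gave 11.5 bins on 3R. Requiring 90% overlap left 37.9% of the clusters of replicate 1 shared.

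With the other settings unchanged, leaving out a replicate reversed a sign on 3L only, where the outer minus inner difference ranged from -1.08 to 3.04 points. The outermost cluster was the highest-scoring on 3 ends in replicate 1, 2 in replicate 2 and 3 in the combined list when the ends were 400 kb, a setting added after seeing the data. No paired analysis was possible because the inputs have no values of their own here and the ChIP replicates form 1 group. Since depth is unknown, a base outside clusters is one that was not called, which says nothing firm about the absence of HP2.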

Other observations

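Inwards of the ends, the next 200 kb was covered more than the end itself on 3L, at 17.0% in replicate 1 and 11.7% in replicate 2, and on 3R, at 8.95% and 5.29%. It was covered less on 2L, at 9.04% and 7.19%, and on X, at 4.73% and 3.59%. The first cluster beyond the end lay close to the 200 kb border on 2L, from 206911 to 208247 in replicate 1 (score 0.363) and from 206390 to 208391 in replicate 2 (0.530). On 3L it ran from 210432 to 214721 (0.898) and from 210425 to 214670 (0.546). On 3R it began 253958 and 265382 bp from the assembled end, and on X 322706 and 228203 bp. The free stretch at the inner side of the 3R end therefore continued for at least 53957 bp beyond it in either replicate.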
